A study of Homo sapiens with 6 samples.

Results

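Nearly all mitochondrial proteins are encoded in the nucleus, made in the cytosol as precursors and imported. The translocase of the outer membrane (TOM) is the common entry gate. The sorting and assembly machinery (SAM) inserts barrel proteins into the outer membrane, the TIM22 complex and the small TIM chaperones deliver carrier proteins to the inner membrane, and the TIM23 complex with its motor draws precursors with a cleavable presequence into the matrix, where the processing peptidase (MPP) removes it. The intermembrane space relay (MIA) oxidizes and traps small cysteine-rich proteins.

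The import genes were taken by name, as the symbols TOMM or TIMM followed by a number, without pseudogene symbols, together with SAMM50, MTX1, MTX2, GRPEL1, PAM16, DNAJC19, PMPCA, PMPCB, CHCHD4 and GFER. This gave 34 of the 23026 genes in the normalized table. By machine they were 9 genes of TOM, 3 of SAM, 8 of TIM22 and the small TIMs, 10 of TIM23 and its motor, 2 of MPP and 2 of MIA. TOMM34, a cytosolic co-chaperone, was counted with TOM. The rule itself used names and no expression value, but it was set with earlier results of these data known. Of the 34 genes, 30 passed the expression filter, a mean normalized count above 10 CPM (counts scaled to the mean library total). TOMM5, TOMM20L, TIMM23B and PAM16 did not.

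The cells were T98G, a human glioblastoma line, infected with a lentivirus for a control hairpin (shControl) or for a hairpin against the kinase DYRK1A (shDYRK1A), selected with puromycin and left to recover. Each condition has 3 libraries, lettered 1A to 1C; wherever 3 values per group are given they stand in that order. The labels name 1 hairpin construct per condition. All 6 received the same number of Drosophila Kc167 cells per T98G cell as a spike-in. The labels do not say whether the 3 libraries of a group came from separate infections, so the p-values measure the spread between these libraries. Total gene counts lay between 33708297 and 42154438. The mesenchymal markers VIM, CD44 and FN1 were abundant, with 20654 or more raw counts in every library, whereas the neural markers SOX2 and GFAP had at most 4 and NES at most 85. Markers of other lineages were low, with at most 6 raw counts for PTPRC, 20 for PECAM1, 20 for MBP, 1 for RBFOX3, 65 for EPCAM and 153 for SYP. Of these, SYP was higher in every shDYRK1A library than in any shControl library on both scales, at 79 to 106 raw counts in shControl and 139 to 153 in shDYRK1A; its part in the results was not tested.

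DYRK1A itself, the target of the hairpin, had normalized counts of 2227, 2234 and 1895 in shControl and of 1482, 1056 and 1285 in shDYRK1A. Its log2 fold change was -0.73 ± 0.15 (SE; quasi-likelihood test of edgeR, adjusted p 5.33e-06). The fitted level in shDYRK1A was 60.2% of that in shControl, and 79.3% (log2 change -0.34, adjusted p 0.000591) when the libraries were scaled on the human genes alone by TMM, so the knockdown was partial on both scales. On log2 CPM the first principal component separated the groups, and shDYRK1A 1B lay furthest from the other libraries on the second. In bulk RNA, fewer T98G cells in the mixture and less RNA per cell cannot be told apart.

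Promoters of 31 of the 34 genes were read from RefSeq (GRCh38.p14), as 250 bases before to 50 after the start; GRPEL1, TIMM8B and TOMM5 had no entry. The exact letters of 4 short motifs were searched on both strands, whereas the study graded matches to its motif by p-value and measured DYRK1A binding by ChIP-Seq. The palindrome TCTCGCGAGA, which the study examined at ribosomal protein gene promoters, was in none of the 34 member promoters (3 for DNAJC19, 2 for MTX1 and 1 for each other gene), against 0.424% of all 35116 promoters, and neither was its core CTCGCGAG, against 1.02%. The core CCGGAAGT recognized by ETS factors was present in 6 genes (MTX2, TIMM10, TIMM10B, TIMM29, TOMM20 and TOMM70), and in 4.14% of all promoters. The core GCGCATGC recognized by NRF1, a regulator of nuclear genes for mitochondria, was present in 5 (CHCHD4, PAM16, TIMM10B, TIMM9 and TOMM7), and in 3.05% of all promoters. Counted by gene, where 1 promoter of a gene with the letters is enough, the ETS core was in 4.95% of 27305 genes and in 11.5% of the 7594 of them that were tested here, the NRF1 core in 3.68% and 7.05%, the palindrome in 0.505% and 1.16% and its core in 1.23% and 2.78%. Of the 28 import genes tested that have an entry, 6, 4, 0 and 0 held them. Promoters of 2 receptors and of 2 chaperone partners are shown, with the ETS core (TOMM70, TOMM20, TIMM10) or the NRF1 core (TIMM9) in capitals. They were picked with the fold changes known, and a link between motif and fold change was not tested.
TOMM70 (chr3:100401040-100401339, minus strand): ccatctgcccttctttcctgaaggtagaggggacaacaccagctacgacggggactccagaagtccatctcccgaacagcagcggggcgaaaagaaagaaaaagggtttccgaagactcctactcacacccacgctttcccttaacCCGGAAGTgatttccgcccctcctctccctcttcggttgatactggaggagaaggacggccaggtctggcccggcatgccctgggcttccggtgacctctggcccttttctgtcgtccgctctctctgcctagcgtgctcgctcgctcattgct
TOMM20 (chr1:235128788-235129087, minus strand): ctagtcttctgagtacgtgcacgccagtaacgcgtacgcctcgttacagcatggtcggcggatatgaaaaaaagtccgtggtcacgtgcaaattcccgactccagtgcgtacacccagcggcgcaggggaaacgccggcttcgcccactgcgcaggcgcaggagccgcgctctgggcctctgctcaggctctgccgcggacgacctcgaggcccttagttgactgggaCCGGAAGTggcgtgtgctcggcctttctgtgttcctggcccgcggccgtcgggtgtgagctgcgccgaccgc
TIMM9 (chr14:58427482-58427781, minus strand): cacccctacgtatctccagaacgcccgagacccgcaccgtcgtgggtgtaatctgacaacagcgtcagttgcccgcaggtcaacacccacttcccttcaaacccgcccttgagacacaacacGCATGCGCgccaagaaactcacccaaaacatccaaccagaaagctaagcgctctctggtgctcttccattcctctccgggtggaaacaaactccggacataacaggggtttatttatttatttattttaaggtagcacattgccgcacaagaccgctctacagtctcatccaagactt
TIMM10 (chr11:57530705-57531004, minus strand): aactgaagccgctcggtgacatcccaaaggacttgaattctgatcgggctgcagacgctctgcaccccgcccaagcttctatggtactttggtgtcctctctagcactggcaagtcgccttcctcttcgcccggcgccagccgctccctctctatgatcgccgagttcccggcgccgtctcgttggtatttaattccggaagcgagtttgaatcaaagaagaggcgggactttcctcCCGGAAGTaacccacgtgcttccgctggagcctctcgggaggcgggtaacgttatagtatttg

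The import genes were lower in shDYRK1A as far as they could be called, and so were most genes. With spike-in scaling, 23 of the 30 tested had an adjusted p below 0.05 and were lower, and 0 were higher; over all 9697 genes tested, 63.4% were lower and 1.08% higher by the same rule. Their median log2 fold change was -0.47, beside -0.40 for all genes, and 19 lay below the median of all genes and 11 above it. Past a log2 fold change of -0.7, 6 of the 30 were lower (14.3% of all genes) and 0 were higher than 0.7 (0.278% of all genes). Without shControl 1A, 15 import genes were lower and 3 of them past the fold threshold, beside 3980 and 1064 of all 9613 genes tested in that fit. The latter count was 3 without shDYRK1A 1B (920 of all 9719 genes). It was 10 without shControl 1C (2084 of 9727) or without shDYRK1A 1A (2098 of 9693). Of the 23 genes, 15 kept an adjusted p below 0.05 in all 6 fits that left out 1 library. The other 8 (TIMM29, GRPEL1, TIMM23, PMPCB, TIMM50, MTX1, TIMM22 and PMPCA) lost it in 1 or more: 8 without shControl 1A, 7 without shControl 1B, 7 without shDYRK1A 1C and 3 without shDYRK1A 1B. Over all genes 3980, 4193, 4293 and 4690 were lower in these fits, in that order, beside 6145 with no library left out. Without shControl 1C, 6 further import genes were called lower, and over all genes 7549 were lower. With 0 genes called higher by edgeR, DESeq2's Wald test also called 0, and no import gene had a positive fold change, so 0 were higher at an unadjusted p below 0.05.

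**Figure D1:**
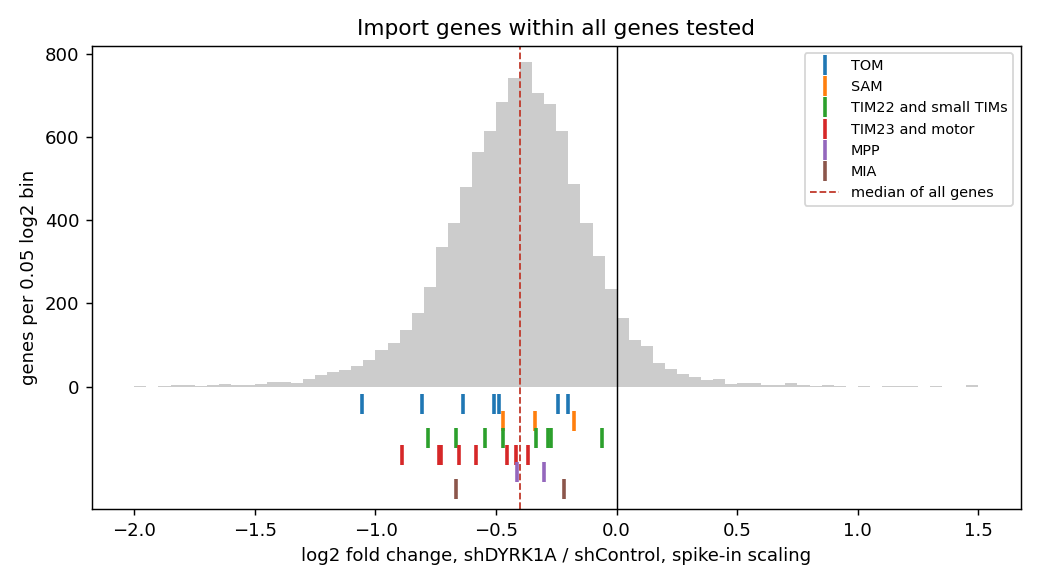
Log2 fold change of shDYRK1A against shControl with spike-in scaling, as a histogram of the 9697 genes tested (grey, genes per bin; 4 genes beyond the ends at -2 and 1.5 are drawn in the end bins) and as ticks for the 30 import genes, coloured by machine. The ticks run from -1.06 (TOMM34) to -0.06 (TIMM8B) and lie on both sides of the dashed median of all genes at -0.40; all ticks are negative on this scale, and 11 of the 30 turn positive with TMM scaling.

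The fly reads set a shift shared by the whole transcriptome, so the same counts were also read under TMM scaling, which moved the median of all genes from -0.40 to 0.00. On that scale 11 import genes were lower and 4 higher at an adjusted p below 0.05 (28.6% and 27.3% of all genes). The 11 lower genes were all among the 23 of the spike-in scale. They were TOMM34, TOMM70, TOMM20, TIMM17B, TIMM17A, TIMM21, TIMM44, DNAJC19, TIMM8A, TIMM9 and CHCHD4. The 4 higher genes were TIMM8B, MTX2, GFER and TOMM40L, none of which was called with the spike-in. Their own spike-in values were negative. No import gene passed 0.7 in either direction under TMM scaling. Few genes of any kind did: of all 9697, 187 were lower and 121 higher past 0.7 at an adjusted p below 0.05.

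Library by library, the 3 shDYRK1A normalized counts were all below the 3 shControl counts for 24 of the 30 genes (63.6% of all genes). The exceptions were GFER, MTX2, TIMM10, TIMM13, TIMM8B and TOMM7. As CPM, the share of the library's own human counts, they were all below for 11 genes (29.3% of all genes), the same genes that were lower under TMM scaling. They were all above for 5 genes (33.5% of all genes), which are the 4 higher ones and PMPCA. The size factors set much of the spread on the normalized scale: shControl 1C was the lowest shControl library for all 30 import genes, as for 99.1% of all genes. For 27 import genes shDYRK1A 1A was the highest shDYRK1A library, a count given without a share over all genes. The import genes together took 0.231, 0.225 and 0.223% of the human counts in the shControl libraries and 0.214, 0.224 and 0.212% in those of shDYRK1A, so that shDYRK1A 1B overlapped the shControl libraries.

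**Figure D2:**
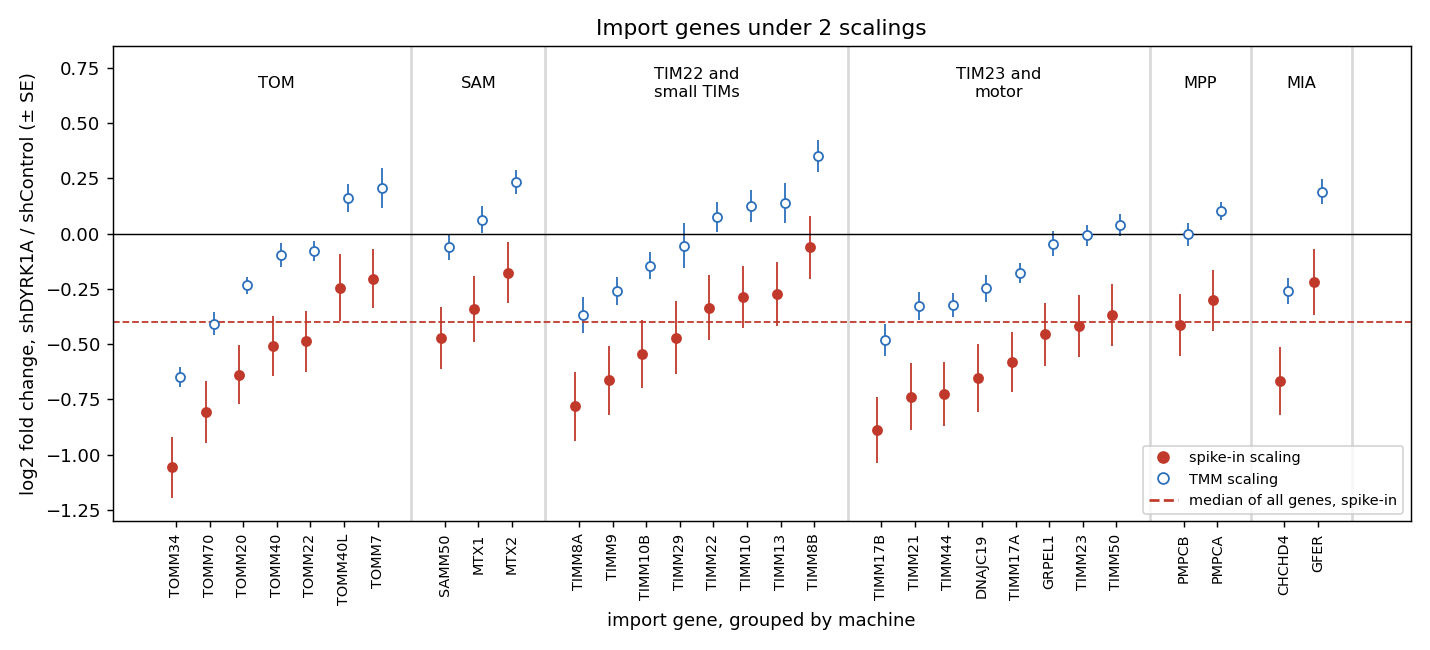
Log2 fold change (± SE, n = 3 libraries per group) of the 30 import genes tested, grouped by machine, with spike-in scaling (filled) and TMM scaling (open); the dashed line is the median of all genes with the spike-in, -0.40. The filled points are all below 0 and the open points lie on both sides of it, with 19 negative and 11 positive.

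At the TOM gate, 5 of the 7 genes tested were lower with the spike-in, beside 63.4% of all genes. The 2 others, TOMM40L and TOMM7, were not called. The median over the 7, with TOMM34 among them, was -0.51. TOMM34, a cytosolic co-chaperone that helps keep precursors import competent, had the largest fall of all import genes. Its gene (chromosome 20, 44942130 to 44960486, minus strand) had normalized counts of 7251, 7660 and 6137 in shControl and 3549, 3129 and 3436 in shDYRK1A. The groups were far apart, and TOMM34 fell to 48.1% of the control level on the fitted scale. The log2 fold change was -1.06 ± 0.14 (SE) (edgeR adjusted p 1.08e-12), and it was -0.65 (adjusted p 7.02e-07) under TMM scaling.

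TOMM70, the receptor that takes carrier precursors from cytosolic chaperones (chromosome 3, 100363431 to 100401398, minus strand), had counts of 5467, 5407 and 4531 in shControl and 3252, 2471 and 3074 in shDYRK1A, with shDYRK1A 1B the lowest. Its log2 fold change was -0.81 ± 0.14 (SE) (edgeR adjusted p 9.84e-08). TOMM20, the receptor for presequences, had the highest counts of the import genes, with 12125, 11598 and 9905 in shControl and 7919, 6542 and 7142 in shDYRK1A. It fell by 0.64 on the log2 scale (edgeR adjusted p 1.19e-05). Both receptors also fell under TMM scaling, by 0.41 for TOMM70 and by 0.23 for TOMM20.

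The channel TOMM40 and the central receptor TOMM22 fell less. TOMM40 had 7226, 7596 and 6078 normalized counts in shControl and 5110, 4803 and 4791 in shDYRK1A, a log2 change of -0.51 (edgeR adjusted p 0.000617). TOMM22 changed by -0.49 (adjusted p 0.00104), and neither was called under TMM scaling (-0.10 and -0.08). TOMM40L, a paralog of the channel, had 1301, 1359 and 1160 in shControl and 1108, 1032 and 1085 in shDYRK1A. Its log2 value was -0.24 with an adjusted p of 0.142, and 0.16 under TMM scaling. The small subunit TOMM7 had 6999, 5866 and 5500 in shControl and 5581, 5618 and 4752 in shDYRK1A, with overlapping groups and a log2 value of -0.20 (adjusted p 0.172), turning to 0.21 under TMM scaling. TOMM7 was among the most abundant import genes per length, at 3496 normalized counts per kilobase of annotated exon in shControl, next to TIMM10 at 3600 and TOMM34 at 3402.

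Of the 3 SAM genes, SAMM50 and MTX1 were lower with the spike-in (63.4% of all genes were) and MTX2 was not called. SAMM50, the barrel of the machinery, had counts of 4573, 4317 and 3670 in shControl and 3119, 2992 and 2941 in shDYRK1A. Its log2 change was -0.47 (edgeR adjusted p 0.00194) and -0.06 under TMM scaling, close to the shift of all genes. The metaxin MTX1 had 1545, 1532 and 1376 in shControl and 1228, 1139 and 1150 in shDYRK1A (log2 change -0.34, adjusted p 0.0383, 0.06 under TMM scaling), a call that was lost with a replicate block and with no filter. Its partner MTX2 had 4042, 3858 and 3195 in shControl and 3541, 3188 and 3086 in shDYRK1A. The MTX2 groups overlapped with the spike-in (-0.18, adjusted p 0.249) and MTX2 was higher under TMM scaling (0.23, adjusted p 0.0036). Part of the MTX1 sequence, 12.4% of its read-length windows, recurs in the pseudogene MTX1P1, so its counts are less certain.

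All 8 genes tested of TIM23 and its motor were lower with the spike-in, with 3 past -0.7 and a median of -0.62 (63.4% of all genes were lower and 14.3% past -0.7); TIMM50 alone of the 8 had a positive value under TMM scaling (0.04). TIMM17B, one of a pair of alternative channel subunits (chromosome X, 48893447 to 48898143, minus strand), had 1938, 2058 and 1723 normalized counts in shControl and 1072, 1055 and 963 in shDYRK1A. Its log2 fold change was -0.89 ± 0.15 (SE) (edgeR adjusted p 5.42e-08). The other subunit of that pair, TIMM17A, was the more abundant, with 6828, 6508 and 5389 in shControl and 4640, 3889 and 3976 in shDYRK1A, and it fell by 0.58 (adjusted p 9.58e-05). Under TMM scaling TIMM17B was at -0.48 and TIMM17A at -0.18.

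TIMM21, which couples TIM23 to the outer membrane gate, had counts of 2091, 1972 and 1485 in shControl and 1228, 1007 and 1091 in shDYRK1A (log2 change -0.74, edgeR adjusted p 6.66e-06). TIMM44, the anchor of the motor at the channel, had 2567, 2420 and 2095 in shControl and 1574, 1363 and 1343 in shDYRK1A (log2 change -0.73, adjusted p 4.64e-06). The groups were apart for both, on the CPM scale too. DNAJC19, a J protein of the motor, changed by -0.65 (adjusted p 9.62e-05). Under TMM scaling the values were -0.33 for TIMM21, -0.32 for TIMM44 and -0.25 for DNAJC19. The channel TIMM23 (-0.42, adjusted p 0.00656), the nucleotide exchange factor GRPEL1 (-0.46, adjusted p 0.00302) and the presequence receptor TIMM50 (-0.37, adjusted p 0.0155) were near the median of all genes, and under TMM scaling their values were -0.01, -0.05 and 0.04. The TIMM23 call was lost in 3 of the 6 fits that left out 1 library.

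Of the 8 genes of TIM22 and the small TIMs, 5 were lower with the spike-in, beside 63.4% of all genes. The median was -0.40, equal at this rounding to that of all genes. TIMM8A, which chaperones hydrophobic precursors through the intermembrane space and is mutated in a deafness and dystonia syndrome, lies on chromosome X (101345659 to 101349196, minus strand). It had normalized counts of 1333, 1125 and 902 in shControl and 690, 589 and 672 in shDYRK1A, a log2 change of -0.78 ± 0.16 (SE; edgeR adjusted p 4.17e-06). Its paralog TIMM8B had 2389, 2194 and 1773 in shControl and 2152, 2046 and 1887 in shDYRK1A. These overlapped, and the log2 value was -0.06 ± 0.14 (SE) with an adjusted p of 0.702, the highest value of the import genes. Under TMM scaling TIMM8B was higher, by 0.35 (adjusted p 0.00152), where TIMM8A was lower, by -0.37 (adjusted p 0.00237).

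TIMM9, which forms a hexamer with TIMM10, had 1020, 1068 and 822 in shControl and 691, 543 and 600 in shDYRK1A (log2 change -0.66, edgeR adjusted p 9.92e-05, -0.26 under TMM scaling). TIMM10 had 3104, 2868 and 2419 in shControl and 2425, 2355 and 2099 in shDYRK1A, where shDYRK1A 1A lay above shControl 1C, and was not called (-0.29, adjusted p 0.0649, 0.13 under TMM scaling). TIMM13, a partner of TIMM8A, had 2256, 2308 and 1925 in shControl and 1874, 1927 and 1567 in shDYRK1A, also with overlap (-0.27, adjusted p 0.0822, 0.14 under TMM scaling). TIMM13 shares 13.0% of its exonic bases with LMNB2 and TIMM10B 13.6% with AC084337.2 on the same strand. On the opposite strand other genes overlap 32.3% of the exonic bases of TIMM8B, 30.5% of TIMM9, 25.9% of GFER, 21.9% of MTX1 and 20.1% of TOMM40L; the library kit keeps the strand, but whether the counting used it is not stated; without it, reads of these partners could not be told apart from theirs. TIMM10B (-0.55, adjusted p 0.00106), the TIM22 subunit TIMM29 (-0.47, adjusted p 0.00877) and the channel TIMM22 (-0.34, adjusted p 0.0359) were lower with the spike-in, and under TMM scaling their values were -0.14, -0.05 and 0.07, none of them called. The TIMM22 call was also lost with a replicate block and with no filter.

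Both subunits of the processing peptidase were lower with the spike-in (63.4% of all genes were), and PMPCB was near the median of all genes. PMPCA, the subunit that holds the presequence, had 4649, 4665 and 3933 in shControl and 3909, 3327 and 3517 in shDYRK1A (-0.30, edgeR adjusted p 0.0467, 0.10 under TMM scaling). The PMPCA call was lost with a replicate block and with edgeR's filterByExpr (adjusted p 0.0561) or no filter (adjusted p 0.0874). PMPCB, the catalytic subunit, had 4157, 4049 and 3274 in shControl and 3118, 2766 and 2740 in shDYRK1A (-0.41, adjusted p 0.00698, -0.0036 under TMM scaling). In the MIA relay 1 of the 2 enzymes was called lower, beside the same share of all genes. CHCHD4, which introduces disulfides into incoming proteins, had 1307, 1202 and 1029 in shControl and 801, 694 and 733 in shDYRK1A (-0.67, adjusted p 7.55e-05, -0.26 under TMM scaling). GFER, the oxidase that recharges CHCHD4, had 1674, 1684 and 1362 in shControl and 1417, 1283 and 1357 in shDYRK1A. For GFER shControl 1C lay within the shDYRK1A range (-0.22, adjusted p 0.183), and it was higher under TMM scaling (0.19, adjusted p 0.012).

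**Figure D3:**
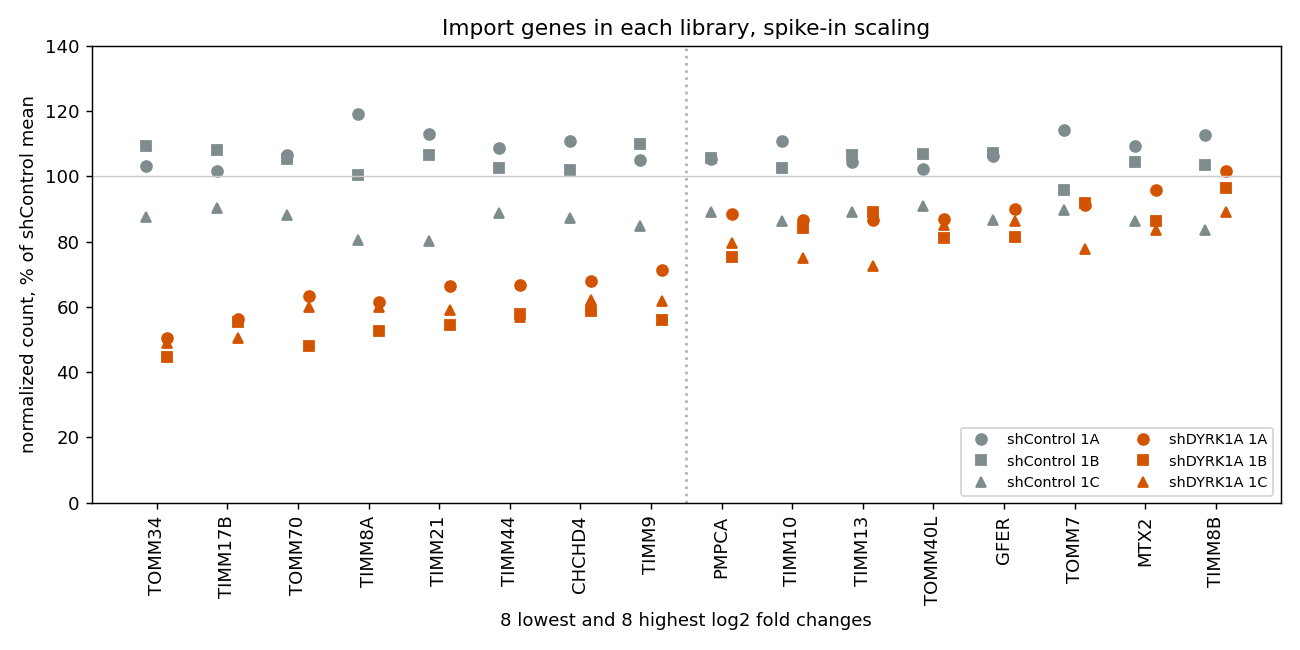
Normalized count in each library as a percentage of the gene's shControl mean, with spike-in scaling, for the 8 import genes with the lowest (left) and the 8 with the highest (right) log2 fold change. On the left the shDYRK1A points lie below all shControl points, while on the right 6 of the 8 genes overlap; shControl 1C is the lowest grey point throughout, and all 8 genes on the right have positive values under TMM scaling.

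Ratios of 2 import genes within a library hold no size factor, and 7 pairs of related genes were compared. In each pair the ratios of the 2 groups did not overlap. The pairs were chosen with earlier results of these data known, and no share over other gene pairs is given. Single genes, a different measure, were fully apart on the CPM scale, below or above, for 29.3% and 33.5% of all genes. Exact permutation of the libraries (two-sided) returned p = 0.1 for every pair, the smallest that 3 libraries against 3 allow, and 0.1 after Benjamini-Hochberg adjustment over the 7 pairs, so no pair could pass 0.05. TIMM8A against TIMM8B had the largest difference of the 7. The raw count of TIMM8A was 0.558, 0.513 and 0.509 of that of TIMM8B in shControl and 0.321, 0.288 and 0.356 in shDYRK1A, a difference of -0.72 in mean log2 ratio. CHCHD4 against GFER gave 0.781, 0.714 and 0.756 in shControl and 0.565, 0.541 and 0.540 in shDYRK1A, a difference of -0.45. TIMM9 against TIMM10 gave 0.329, 0.372 and 0.340 in shControl and 0.285, 0.231 and 0.286 in shDYRK1A, a difference of -0.38. TIMM17A exceeded TIMM17B 3.52, 3.16 and 3.13 times in shControl and 4.33, 3.68 and 4.13 times in shDYRK1A, a difference of 0.31. The differences for TOMM40 against TOMM40L (-0.26), MTX1 against MTX2 (-0.17) and PMPCA against PMPCB (0.11) were smaller.

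**Figure D4:**
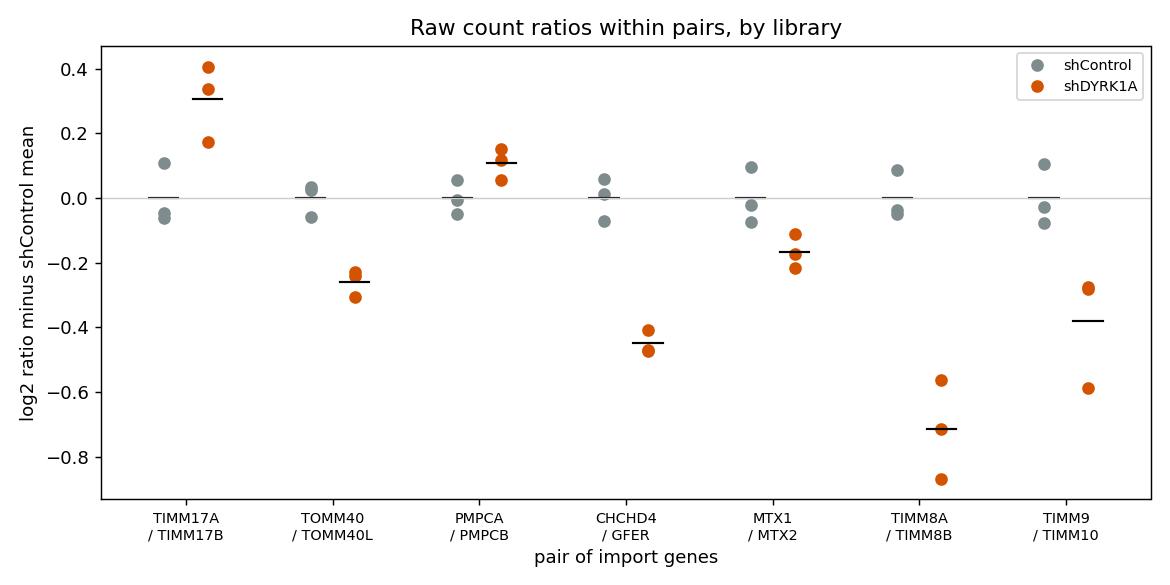
Log2 ratio of raw counts within 7 pairs of import genes, in each library, minus the mean of the shControl libraries for that pair; points are libraries and bars are group means (n = 3). The shDYRK1A points lie to one side of the shControl points in every pair, furthest for TIMM8A against TIMM8B (-0.72).

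The 4 genes under the filter had normalized counts between 0 and 278 and were not tested with the filter used. TIMM23B, a near copy of TIMM23, had 278, 242 and 201 in shControl and 226, 148 and 220 in shDYRK1A. PAM16, of the motor, had 99.3 to 150 in shControl and 55.6 to 123 in shDYRK1A, and TOMM5, a small TOM subunit, had 138, 119 and 133 in shControl and 119, 59.3 and 84.0 in shDYRK1A. PAM16 shares 21.9% of its exonic bases with the readthrough gene CORO7-PAM16 and TOMM5 shares 18.7% with other annotated genes, so reads that could belong to either may be missing from these counts. With edgeR's filterByExpr, which keeps genes of lower counts, TOMM5 (-0.57, adjusted p 0.0271) and PAM16 (-0.55, adjusted p 0.037) were called lower. The same test with no filter called TOMM5 (adjusted p 0.0431) and not PAM16 (adjusted p 0.0589). Over all genes 7745 of 17530 were lower with filterByExpr and 7223 of 29362 with no filter. The medians of all genes were -0.37 and -0.33. TOMM20L was close to 0 in all 6 libraries.

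Other genes of import and membrane insertion were read beside these. Of 19, 18 passed the filter, of which 12 were lower and 0 higher with the spike-in, with a median log2 fold change of -0.41 (63.4% and 1.08% of all genes, median -0.40). HSPE1, the small partner of the matrix chaperonin, fell most (-1.12, edgeR adjusted p 3.64e-11, -0.71 under TMM scaling), followed by GRPEL2, a nucleotide exchange factor related to GRPEL1 (-1.04, adjusted p 4.8e-10, -0.64 under TMM scaling). HSPE1 overlaps a readthrough gene, so its counts are uncertain. At the other end, ROMO1, a small inner membrane protein, had 0.03 (adjusted p 0.872, 0.44 under TMM scaling) and IMMP1L, of the inner membrane peptidase, -0.14 (adjusted p 0.462, 0.27 under TMM scaling). Under TMM scaling 7 of the 18 were lower and 4 higher (28.6% and 27.3% of all genes). HSPA9, the HSP70 of the motor, and HSPD1, the chaperonin, were outside the rule for named genes and chosen after their values were seen; they fell by 0.56 (adjusted p 6.26e-05) and by 0.78 (adjusted p 2.28e-08), with values of -0.16 and -0.37 under TMM scaling.

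The MICOS genes, which shape the cristae junctions and contact SAM, numbered 7, of which 6 were tested. With the spike-in, 4 were lower and 0 higher, with a median of -0.36, and under TMM scaling 0 were lower and 2 higher, beside the same shares of all genes (63.4% and 1.08% with the spike-in, 28.6% and 27.3% under TMM scaling). APOOL (-0.53, edgeR adjusted p 0.00186, -0.12 under TMM scaling) and CHCHD3 (-0.47, adjusted p 0.00155, -0.07 under TMM scaling) had the lowest values. CHCHD6 (-0.04, adjusted p 0.825, 0.37 under TMM scaling) and C19orf70 (-0.24, adjusted p 0.156, 0.17 under TMM scaling) had the highest. Only 2 MICOS genes were lower without shControl 1A, without shControl 1B or without shDYRK1A 1C. Over all genes 3980, 4193 and 4293 were lower in these fits, beside 6145 with no library left out.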

How the data were processed

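Messenger RNA was sequenced from 6 libraries (stranded kit, paired-end reads), and groups and replicate letters were read from the sample titles. The authors deposited raw gene counts per library for 58174 human gene identifiers. They also deposited a normalized signal for 23026 genes, which is the raw count divided by 1 size factor per library, derived per the study's methods from the Drosophila reads. These factors ranged from 0.821 to 1.03 in shControl and from 1.06 to 1.21 in shDYRK1A. STAR and DESeq2, with builds hg38 and dm3, are named in the submitters' processing notes; the annotation and the counting mode are not given in the sources used here. Coordinates of 95.8% of the genes equalled GENCODE v29. The deposited table of the authors' DESeq2 comparison (fold changes and p-values) was not used, and 0 sample columns were unmatched. Lines of the count tables that name no gene were left out of library sizes. Unmapped reads made up 8.44 to 15.65% of reads. The share was highest in shDYRK1A 1B, which also had the lowest total gene count (33708297).

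Counts were compared by the robust quasi-likelihood F test of edgeR 4.0.16 (R 4.3.3) with those size factors, on the 9697 genes with a mean normalized count above 10 CPM; p-values were adjusted over these genes by Benjamini and Hochberg's procedure. SE was taken as the log2 change over the root of F. Ratios of raw counts were compared by two-sided exact permutation tests (Python 3.11.15, scipy 1.17.1). CPM was computed from the counts. The edgeR fit with spike-in scaling was tested on simulated counts in which most genes were unchanged, unlike these data. Replicate libraries differed by more than sampling noise.

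The import genes, lists and pairs were chosen with earlier results of these data known. Named with values are the 8 lowest and 8 highest import genes by fold change, the genes of the pairs, and the 2 lowest and 2 highest of each other list; the remaining 10 import genes tested, and HSPA9 and HSPD1, fall outside that rule and were named after their values were seen. Tried as well were scaling by TMM or by the median of ratios, DESeq2 1.42.0, filterByExpr, no filter beyond 1 count, a replicate block and each library left out.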

Additional observations from a re-analysis of the deposited data

How the results depend on the processing

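Scaling on the human genes changed the results most. Under TMM and median-of-ratios scaling, 11 and 11 import genes were lower, 4 and 5 higher, and 0 and 0 lower past the fold threshold. Of the other import genes 7 and 6 were lower and 4 and 5 higher. Of the MICOS genes 0 and 0 were lower and 2 and 2 higher. Over all genes 2769 and 2719 were lower, 187 and 184 of them past the fold threshold, and 2652 and 2709 higher. The sign turned for 11 import genes, whose log2 values under TMM and median-of-ratios scaling were 0.191 and 0.194 (GFER), 0.0639 and 0.067 (MTX1), 0.232 and 0.235 (MTX2), 0.104 and 0.107 (PMPCA), 0.125 and 0.128 (TIMM10), 0.138 and 0.141 (TIMM13), 0.0748 and 0.0779 (TIMM22), 0.0389 and 0.042 (TIMM50), 0.351 and 0.354 (TIMM8B), 0.162 and 0.165 (TOMM40L) and 0.208 and 0.211 (TOMM7). With 1 library left out TIMM8B lay between -0.176 (without shControl 1C) and 0.0327 (without shControl 1A). DESeq2's Wald test called 25 import genes lower, filterByExpr 24 and no filter 21, all with 0 higher. Over all genes these settings called 6607 of 9697, 7745 of 17530 and 7223 of 29362 lower, and 126, 346 and 331 higher. The difference of the import genes' median from that of all genes (-0.07) lay between -0.14 and -0.03 over the alternatives. With 1 library left out, the counts ranged from 15 to 29 for import genes lower, 3 to 10 for those past the fold threshold, 8 to 15 for other import genes lower, 2 to 4 for MICOS genes lower, and 3980 to 7549 lower and 68 to 111 higher over all genes; each pair ratio kept its direction. DYRK1A lay between -0.85 and -0.61 with 1 library left out, and was -0.34 and -0.33 under TMM and median-of-ratios scaling.

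With the replicate letter as a replicate block, 20 import genes were lower (23 without it; PMPCA, MTX1 and TIMM22 lost the call), 6 past the fold threshold, 12 other import genes and 3 MICOS genes; DYRK1A was -0.74, the median difference -0.06, and over all genes 5913 were lower and 98 higher. Same-lettered libraries had correlations of 0.151, 0.0728 and 0.128 between their deviations from the group means and every library correlated best with its own letter, a hint from the data and not from the design, since the labels state no shared batch. TOMM5, TOMM20L, TIMM23B and PAM16 fell under the filter, and the reason for their low counts was not tested. Of them filterByExpr called TOMM5 and PAM16 lower, and no filter TOMM5, beside 7745 of 17530 and 7223 of 29362 of all genes.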

Other observations

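The naming rule left out 3 pseudogene symbols, which were near 0: TIMM8AP1 had normalized counts of 1.95 to 9.74, TOMM20P4 of 9.06 to 19.5 and TIMM8BP2 of 14.6 to 38.9 over the 6 libraries. TIMMDC1, an assembly factor of complex I whose symbol has no number directly after TIMM and so falls outside the rule, had 4312, 4126 and 3572 in shControl and 3703, 3094 and 3198 in shDYRK1A. TOMM6, a small TOM subunit outside the normalized table, had 0 raw counts in all 6 libraries. The reason was not tested, and whether the cells express TOMM6 was not judged from these counts.

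Across the 30 import genes tested, Spearman's rho of the log2 fold change with annotated exon length was -0.30, beside -0.17 over 9693 genes of all kinds, and with the level per kilobase it was 0.20, beside 0.00; these genes share their libraries, and the values are descriptions.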
